A study of Homo sapiens with 4 samples.

Results

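AGO regions were described on 9 human genes of TGF-beta and BMP signalling: the type I receptors TGFBR1 and ACVR1B, the type II receptors TGFBR2, ACVR2B and BMPR2, the receptor-regulated SMADs SMAD2 and SMAD5, the common SMAD4 and the inhibitory SMAD7. A region belonged to a gene when it overlapped the gene's span on the genome build hg19 by at least 1 nt on the gene's own strand. By this rule 405 of the 211947 regions of the deposited list lay on these genes, and each of the 9 genes held at least 19. The list came from PAR-CLIP, in which cells take up 4-thiouridine, bound RNA is crosslinked to a chosen protein with ultraviolet light, and the RNA that comes down with the protein is sequenced. Cells of HEK293, a human embryonic kidney line, gave 3 AGO1 libraries (200 µM 4-thiouridine, antibody to the FLAG tag of a stably expressed His/FLAG/HA-tagged protein) and 1 AGO2 library (100 µM, antibody to AGO2 itself, with no tag named in its labels). All 4 libraries shared an exposure of 16 h and crosslinking at 365 nm, and none is labelled with a ligand or inhibitor of the pathway. The list pools libraries, without a statement of which of the 4, and holds 1 score per region. It thus allowed no comparison of one protein with the other, the depth of each library is unknown, and no value below has a replicate error. The score is the authors' own, a whole number from 1 to 1000 over the list, and its meaning was not given in the sources used here.

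In this pathway a ligand brings together type II and type I receptor kinases, the type II kinase phosphorylates the type I kinase, and the type I kinase phosphorylates a receptor-regulated SMAD. That SMAD pairs with SMAD4 and enters the nucleus to regulate genes, while SMAD7 binds the type I receptor and blocks the signal. Argonaute proteins such as AGO1 and AGO2 carry microRNAs, which recognise target mRNAs mainly through their seed, bases 2 to 8, most often in 3′ untranslated regions. Members of the miR-17 family are known to repress TGFBR2 and BMPR2, and miR-21 is known to repress SMAD7. Their mature sequences, from RefSeq (GRCh38.p14), show the seeds by which AGO is directed to such mRNAs, with the seed in capitals; the first 4 share 1 seed.
hsa-miR-17-5p: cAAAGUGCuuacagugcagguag
hsa-miR-20a-5p: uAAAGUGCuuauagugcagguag
hsa-miR-93-5p: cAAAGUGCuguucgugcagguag
hsa-miR-106b-5p: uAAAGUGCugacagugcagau
hsa-miR-21-5p: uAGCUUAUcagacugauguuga
The hg19 sequence under the regions was not used here, so no region is assigned to a microRNA. Exon and untranslated-region bounds on hg19 were not used either, and positions are given as the distance from the 3′ edge of a region to the 3′ end of the gene's span.

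Most regions on the 9 genes had low scores, as in the list at large, but the few highest scores were high. The median score was 3 (interquartile range 2 to 5) over the 405 regions, and 3 (2 to 5) over the whole list. Scores of at least 5 were seen in 126 member regions, or 31.1% (Wilson 95% interval 26.8 to 35.8), against 27.0% of all regions. Of the member regions 48 had a score of 10 or more, or 11.9% (9.06 to 15.4), against 11.0% of all regions, and 16 had a score of 20 or more, or 3.95% (2.45 to 6.32), against 4.09%, so these shares were near the background. At 100 or more stood 4 member regions, or 0.988% (0.385 to 2.51), against 0.264% of all regions. These 4 lay on SMAD5 (236), SMAD7 (142), TGFBR2 (127) and ACVR2B (126), 1 on each gene. Wilson intervals here cover counting error only, and regions of a gene share its transcript and are not replicates. The ceiling of 1000 was reached by none of the member regions. The median width was 35 nt (27 to 47), against 32 nt (25 to 43) over the list. Regions of at least 100 nt numbered 13 on the 9 genes and made up 3.21% (1.89 to 5.41), against 1.81% of all regions.

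**Figure D1:**
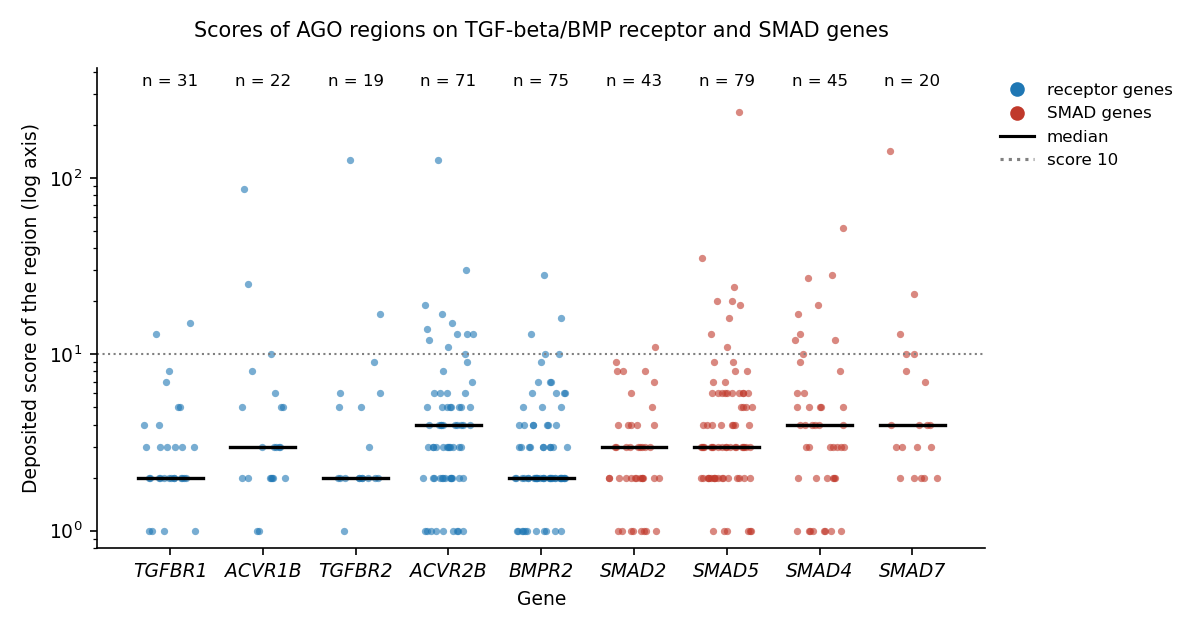
Score of each region (vertical axis, log scale, no unit) on each gene (horizontal axis); points are regions, black bars are medians and the dotted line marks a score of 10. Medians lie between 2 and 4 in all 9 genes, whereas the highest score per gene ranges from 11 on SMAD2 to 236 on SMAD5.

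The genes differed more in how many regions they held, and in their highest score, than in the typical score of a region. SMAD5 held 79 regions, BMPR2 75 and ACVR2B 71, which together make more than the other 6 genes combined. SMAD4 held 45, SMAD2 43, TGFBR1 31, ACVR1B 22, SMAD7 20 and TGFBR2 19. Per length of the span, ACVR2B came first with 18.3 regions per 10 kb and SMAD5 next with 15.8 regions per 10 kb. The other 7 genes ranged from 2.17 regions per 10 kb on TGFBR2 to 8.21 on SMAD4. BMPR2, the longest span at 191425 nt, had 3.92 regions per 10 kb in spite of its 75 regions. Introns count in these lengths, so a density per span is not a density per mRNA. Medians of the score were 4 on ACVR2B, SMAD4 and SMAD7, 3 on ACVR1B, SMAD2 and SMAD5, and 2 on TGFBR1, TGFBR2 and BMPR2, and the interquartile ranges of all 9 genes overlapped. The amount of each mRNA in the cells was not measured in the list, and its part in these numbers was not tested.

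Of the type I receptors, TGFBR1, which takes up TGF-beta signals, had no region with a score above 15, and ACVR1B, which takes up activin and Nodal signals, had 1 region that held 47.8% of its summed score. The span of TGFBR1 (chr9:101867412-101916474, plus strand) held 31 regions with a summed score of 109. Of these, 23 (74.2%) had a score of 3 or less, against 64.4% of all regions of the list. This difference rests on 31 regions and was not tested. Its highest was a 25-nt region at chr9:101915436-101915460 with a score of 15, at 1014 nt from the 3′ end. The next, at chr9:101891323-101891367 with a score of 13, lay 25.1 kb from the 3′ end and had no other region of the gene within 2 kb. The remaining TGFBR1 regions had scores of 1 to 8, so no single region stood far above the others. The span of ACVR1B (chr12:52345451-52390863, plus strand) held 22 regions with a summed score of 182. A 122-nt region at chr12:52390667-52390788 had a score of 87, which 0.345% of all regions of the list reached, and it ended 75 nt before the 3′ end of the gene. A 30-nt region at chr12:52388071-52388100, with a score of 25, opened the same group of regions, and the 5 regions within 500 nt of the highest one had scores of at most 5. Away from the 3′ end, 4 regions of ACVR1B lay between 21.8 and 20.6 kb from it, the highest with a score of 10.

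The type II receptors showed 3 different patterns. TGFBR2, which binds TGF-beta itself, had few regions, of which 1 stood far above the others. Its span (chr3:30647994-30735634, plus strand) held 19 regions with a summed score of 199. The 63-nt region at chr3:30733334-30733396 had a score of 127 and 63.8% of that sum, and it lay 2238 nt from the 3′ end. Scores of 17 and 9 came next on TGFBR2, the first of them in a 65-nt region that ended 95 nt before the 3′ end. The highest score was therefore 7.47 times the next on this gene, the largest such ratio among the 9.

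ACVR2B, which binds activins and myostatin, had regions along nearly all of its last 10 kb, with 1 gap of over 1 kb. Its span (chr3:38495790-38534633, plus strand) held 71 regions with a summed score of 492, and 65 of them (91.5%) lay within 10 kb of the 3′ end. The 110-nt region at chr3:38525178-38525287 had a score of 126 at 9346 nt from the 3′ end. It stood in a group of 25 regions, between 9.85 and 7.07 kb from the 3′ end, whose median score was 5. After a gap, a further 40 regions ran from 5856 nt to 10 nt from the 3′ end, with a median score of 3.5 and a highest score of 30 at chr3:38531883-38531971. On ACVR2B 12 of the 71 regions had a score of 10 or more (16.9%, 9.94 to 27.3), an interval that includes the 11.0% of the list.

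BMPR2, the type II receptor for bone morphogenetic proteins, had many regions and none of very high score. Its span (chr2:203241050-203432474, plus strand) held 75 regions with a summed score of 277, and 52 of them (69.3%) had a score of 3 or less, near the 64.4% of the list. The highest scores were 28 in a 123-nt region at chr2:203426133-203426255 and 16 in a 116-nt region at chr2:203425174-203425289. Both lay in a group of 39 regions between 8051 and 1868 nt from the 3′ end. BMPR2 was also the gene with the most regions at its 5′ end: 8 lay between 431 and 2521 nt from the start of the span, with scores of 1 to 6. Of the 17 groups of regions on BMPR2, 11 were a single region, and the like share over the list was not counted.

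The receptor-regulated SMADs were at opposite ends of the 9 genes by highest score. SMAD5, which carries BMP signals, had the most regions, the highest summed score and the highest single score. Its span (chr5:135468534-135518422, plus strand) held 79 regions with a summed score of 651. The 229-nt region at chr5:135513944-135514172, the widest of the 405, had a score of 236, reached or passed by 121 regions of the list (0.0571%). It lay 4250 nt from the 3′ end, and on SMAD5 a 161-nt region with a score of 24 ended 39 nt before it. Another 104-nt region of SMAD5, at chr5:135510122-135510225, had a score of 35. Upstream of the 3′ end, 8 regions of SMAD5 lay within 510 nt, from 29.1 to 28.6 kb from the 3′ end, with a median gap of 9 nt and scores of 3 to 6. All of the 6 groups of regions on SMAD5 held more than 1 region, again with no like share counted over the list.

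SMAD2, which carries TGF-beta and activin signals, had the lowest highest score. Its span (chr18:45359466-45457517, minus strand) held 43 regions with a summed score of 143. The highest was a 40-nt region at chr18:45368045-45368084 with a score of 11, at 8579 nt from the 3′ end, and it was the only SMAD2 region of at least 10. The next, with a score of 9, lay 35.2 kb from the 3′ end at chr18:45394700-45394765. Regions of SMAD2 were also the least crowded, with 44.2% within 100 nt of another, against 87.3% on SMAD5.

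SMAD4, the partner shared by the receptor-regulated SMADs, was the only gene of the 9 whose highest score lay more than 10 kb from the 3′ end. Its span (chr18:48556583-48611411, plus strand) held 45 regions with a summed score of 309, of which 9 had a score of 10 or more (Wilson interval of the share 10.9 to 33.8%, which includes the 11.0% of the list). The 82-nt region at chr18:48584735-48584816 had a score of 52 at 26.6 kb from the 3′ end, with no other region within 500 nt. A 43-nt region at chr18:48575182-48575224, with a score of 28, lay 36.2 kb from the 3′ end. The 123-nt region at chr18:48604840-48604962, with a score of 27, belonged to a group of 24 regions between 8311 and 4678 nt from the 3′ end, whose median score was 5. Past that group, the last 4678 nt of SMAD4 held 3 regions, with scores of 4, 2 and 1.

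SMAD7, the feedback inhibitor, had few regions, of which 1 stood far above the others, as on TGFBR2. Its span (chr18:46446223-46477081, minus strand) held 20 regions with a summed score of 250. The 83-nt region at chr18:46447629-46447711 had a score of 142 and 56.8% of that sum, at 1406 nt from the 3′ end. The next scores on SMAD7 were 22 at chr18:46448129-46448169 and 13 at chr18:46446396-46446479. At the 5′ end, 3 regions of the span, with scores of 3 and 4, formed a group with a region just upstream of it.

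Regions were denser in the last 5 kb than in the rest of the span in 8 of the 9 genes, all but SMAD4. The last 5 kb of the spans made up 6.97% of their summed length and held 188 of the 405 regions (46.4%, 41.6 to 51.3), a density of 41.8 regions per 10 kb, against 3.61 per 10 kb in the rest of the spans. This 11.6-fold ratio was 15.8-fold over the 5 receptor genes and 7.64-fold over the 4 SMAD genes, with no test of the difference. By gene it ranged from 6.96-fold on ACVR2B to 88.2-fold on TGFBR2, and was 0.972-fold on SMAD4. The ratio of TGFBR2 rests on 3 regions outside its last 5 kb. Introns count in the lengths, so a ratio along the span is not a ratio along the mRNA. The last 5 kb held 87.1% of the regions of TGFBR1, 84.2% of those of TGFBR2 and 80.0% of those of SMAD7, but 22.7% of those of BMPR2, 27.9% of those of SMAD2 and 8.89% of those of SMAD4. On BMPR2, SMAD2 and SMAD4 the main group lay farther upstream, and the last 10 kb held 58.7%, 62.8% and 60.0% of their regions. Over all 9 genes the last 10 kb held 297 regions (73.3%) and 82.1% of the summed score. The median score was 3 in the last 5 kb and 3 elsewhere, and 10.6% of the 188 regions in the last 5 kb reached a score of 10, against 12.9% of the other 217.

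**Figure D2:**
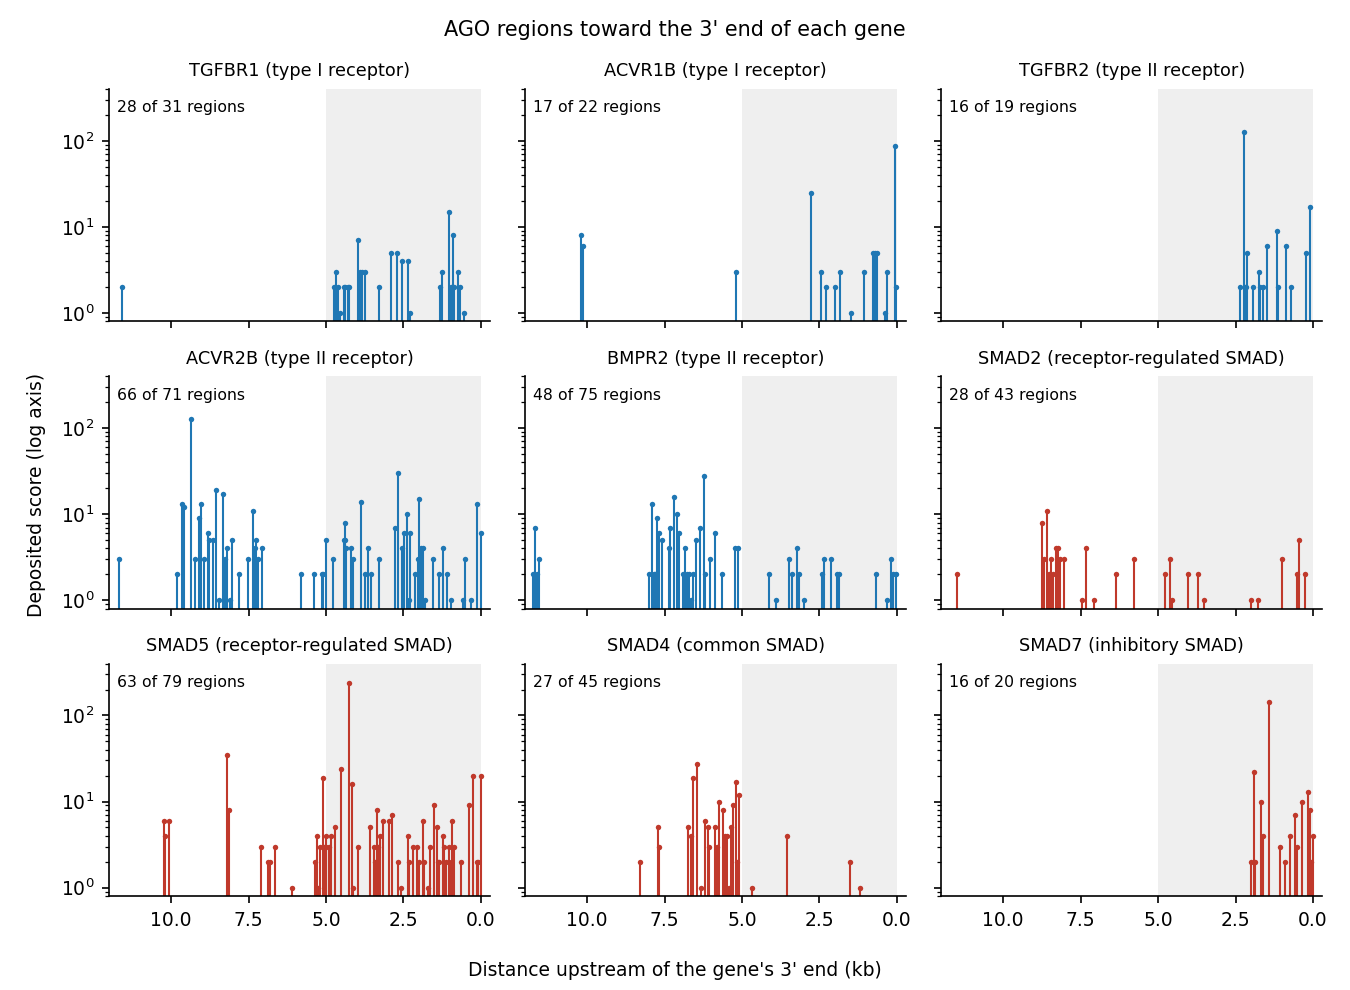
Score of each region (vertical axes, log scale) against its distance from the 3′ end of the gene in kb (horizontal axes, 3′ end at the right), for the last 12 kb of each gene, which held 309 of the 405 regions; the grey band marks the last 5 kb. On TGFBR1, TGFBR2 and SMAD7 the regions crowd into the band, whereas the main groups of BMPR2, SMAD2 and SMAD4 lie mostly to its left.

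**Figure D3:**
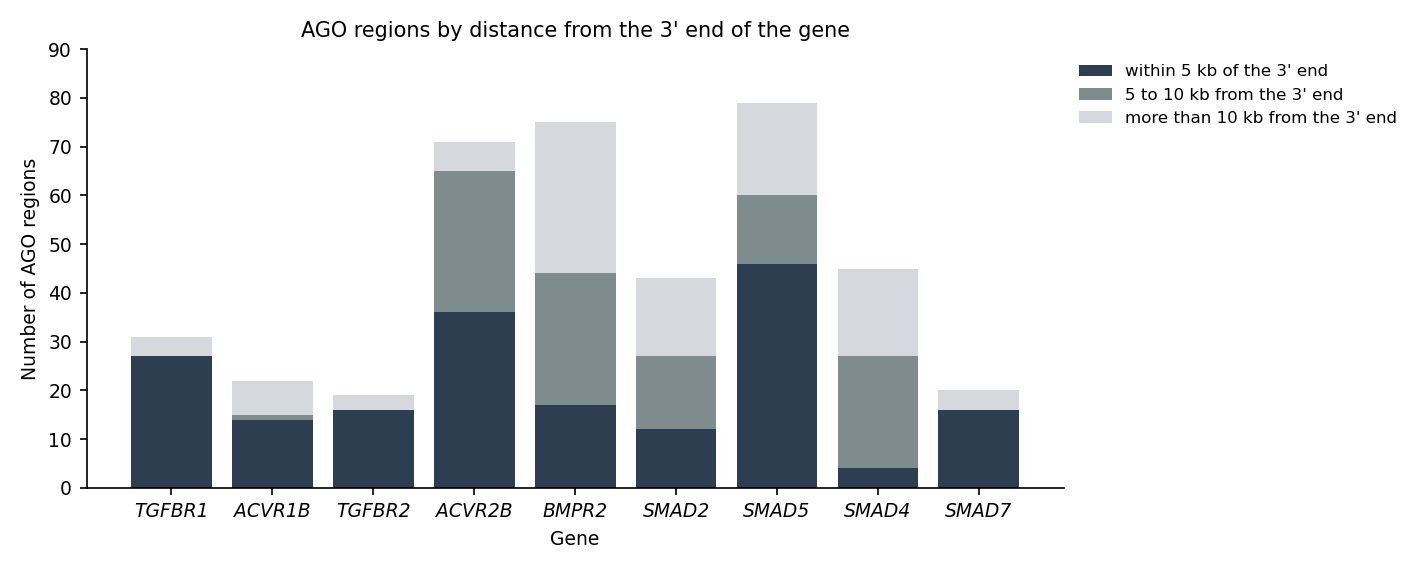
Number of regions (vertical axis) on each gene (horizontal axis), stacked by distance from the 3′ end. The share within 5 kb ranges from 8.89% on SMAD4 to 87.1% on TGFBR1.

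The regions stopped at or before the 3′ end of each gene and, within the spans, kept to the genes' strand. The last region ended 0 nt from the 3′ end of the span on SMAD5, 1 nt from it on SMAD7, 10 nt on ACVR2B, 20 nt on ACVR1B, 22 nt on BMPR2 and 95 nt on TGFBR2. On SMAD2, TGFBR1 and SMAD4 these distances were 271, 545 and 1183 nt. No region of the same strand lay in the 5 kb past the 3′ end of any of the 9 genes, and the nearest past an end was 8130 nt away, downstream of ACVR1B. In the 5 kb before the 5′ ends there were 4 regions, 2 of them at SMAD7, with scores of 1 to 3. The 9 spans held 405 regions on the genes' strand, against 0 on the opposite strand, so the sense share was 100%. Taken as 3 counts of the 405, a count of 0 would allow an opposite-strand share of up to 0.741%. The Wilson 95% interval of the sense share began at 99.06%. Both treat the regions as independent, but they share the transcripts of 9 genes, so both bounds are too tight. None of the 405 regions had an opposite-strand region within 1000 nt, against 4.29% of all regions of the list.

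Regions lay closer to each other than in the list at large on 7 of the 9 genes. Another region of the same strand lay within 100 nt for 290 of the 405 (71.6%, 67.0 to 75.8), against 53.4% of all regions. By gene this share ranged from 68.4% on TGFBR2 to 87.3% on SMAD5, except for 11 of 22 regions on ACVR1B and 44.2% on SMAD2. Joining regions of a strand at gaps of up to 1000 nt gave 70 groups on the 9 genes, of which 10 were arrays, that is, groups of at least 10 regions. Over the whole list 4320 of 76044 groups were arrays. There were 2 arrays on ACVR2B and 1 on each of the other 8 genes. With regions of score 3 or more alone, TGFBR1, ACVR1B, TGFBR2 and SMAD2 had no array, their largest groups holding 8 or 9 regions. With all scores counted, the 10 arrays held 282 of the 405 regions (69.6%, 65.0 to 73.9), against 40.4% of all regions in arrays. Neighbouring regions count together in this share and in that within 100 nt, so both intervals are too narrow. The list was not limited to genes with many regions, so neither background is matched to the 9 genes. The array of SMAD5 was the longest, with 60 regions over 8301 nt (chr5:135510122-135518422), a size that 61 of the 4320 arrays of the list reached (1.41%). The arrays next in size held 40 regions on ACVR2B (chr3:38528777-38534623) and 39 on BMPR2 (chr2:203424423-203430606), and 6.25% and 6.92% of all arrays were at least as large. The arrays of TGFBR1 (27 regions), SMAD4 (24), SMAD2 (21), SMAD7 (16), TGFBR2 (16) and ACVR1B (14) were each reached in size by at least 18.8% of all arrays. Whether regions a few nt apart are separate sites was not tested.

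The arrays divided by how much of their summed score 1 region held. On TGFBR2 the highest region held 65.5% of the array's score, on SMAD7 59.7% and on ACVR1B 59.2%. These 3 of the 10 arrays passed 50%, as did 4.65% of all arrays of the list; those of TGFBR2 and ACVR1B are arrays only with regions of scores under 3 counted. The share was 45.2% in the upstream array of ACVR2B and 42.6% in that of SMAD5. In the other 5 arrays it was 15.1 to 16.9%, on the downstream array of ACVR2B and on BMPR2, TGFBR1, SMAD4 and SMAD2. No array of the 9 genes fell between 16.9% and 42.6%. The median over all arrays was 22.5% (interquartile range 16.8 to 31.0), so the lower 5 lay near its lower quartile and the upper 5 above its upper quartile. The share depends on size: its median over the list was 25.2% in arrays of 10 to 19 regions, 19.1% in those of 20 to 39 and 14.0% in those of 40 or more. All 3 member arrays above 50% had fewer than 20 regions, where 6.61% of the list's arrays passed 50%. The SMAD5 array, with 60 regions and 42.6%, lay above the median of 14.0% for its size class. So did the upstream array of ACVR2B, with 25 regions and 45.2%, above the 19.1% of its class. How many arrays of these classes reach such shares was not counted. These shares depend on the authors' division of the signal into regions, made by a caller not given in the sources used here.

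**Figure D4:**
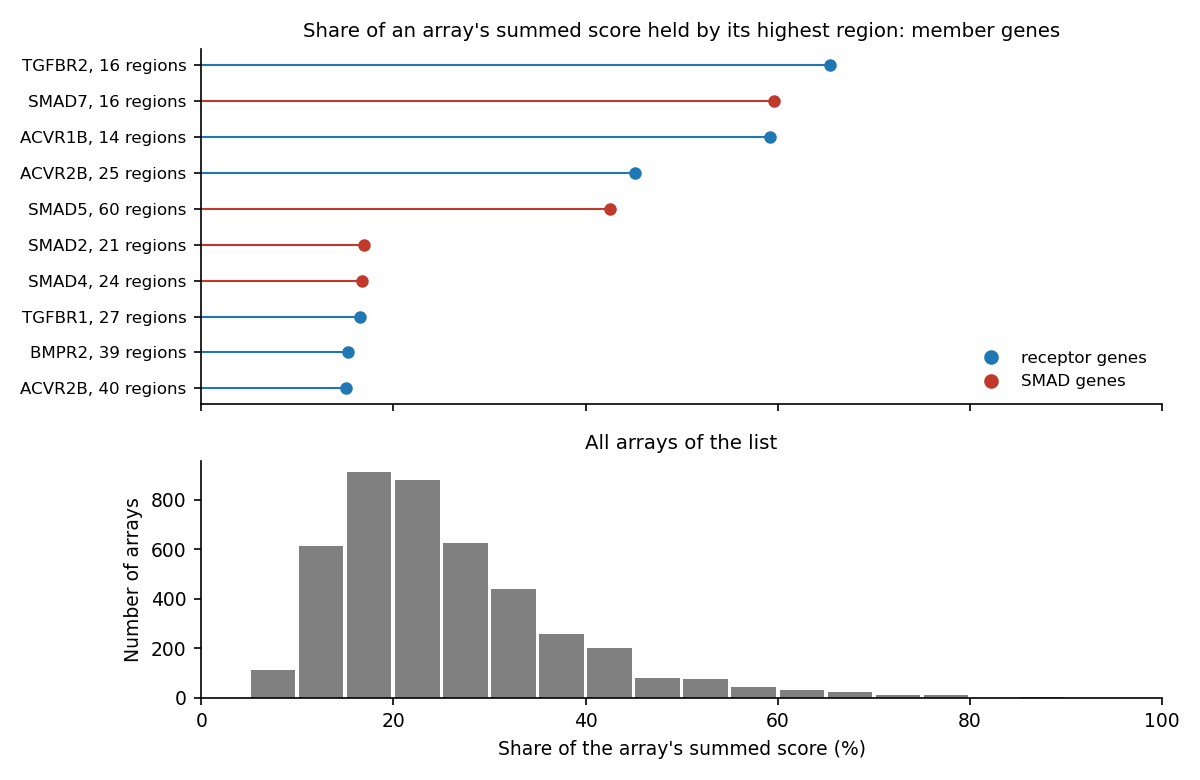
Share of an array's summed score held by its highest region (horizontal axis, %), for the 10 arrays on the 9 genes (upper panel, 1 line per array) and as a histogram of all 4320 arrays of the list (lower panel, number of arrays). Among the member arrays 5 lie between 42.6% and 65.5% and 5 between 15.1% and 16.9%.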

How the data were processed

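The values came from 1 deposited list of regions on hg19. Per the file headers, it carries the library set name AGO_good and a filter whose name includes 0.05, and per the submitters' processing notes BWA 0.5.8c was used. The region caller was not given in the sources used here. A score per region was deposited by the authors without a stated meaning, and the other numeric columns deposited are coordinates, printed here counting from 1. The 9 spans are hg19 gene spans. All 9 genes are named, each with its region of highest score and its array with the most regions. The members, thresholds and measures were chosen with earlier results of these data known. Positions were measured from the 3′ end of the span, groups joined regions of a strand at gaps of up to 1000 nt, and an array held at least 10 regions. No test was made, since the list has no value per library. Alternatives changed the overlap rule, score minimum, threshold, window, gap and genes counted. The functions for overlaps, groups and neighbours were tested on simulated data. Values were computed with pandas 2.3.3 and numpy 2.4.6 in Python 3.11.15, intervals with scipy 1.17.1 and figures with matplotlib 3.10.9.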

Additional observations from a re-analysis of the deposited data

How the results depend on the processing

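Of 43 alternatives for 5 results, 36 stayed within the Wilson 95% interval of a share or within 1.5 times of a count, and 7 moved further. No paired analysis was possible because no column of the pooled list names a library. The 405 regions on the 9 genes stayed 405 when a region had to lie wholly inside the span, when its 1-nt position decided, and when the spans were extended by 5 kb past their 3′ ends. They were 241 at scores of at least 3. The share of regions with a high score (11.9% at 10) was 31.1% at a threshold of 5, against 27.0% of the list, and 3.95% at 20, against 4.09% of the list, and ranged from 10.8% without ACVR2B to 13.0% without BMPR2. The share in the last 5 kb (46.4%) was 23.5% for the last 2 kb and 73.3% for the last 10 kb, which follows from the width of the window, and ranged from 43.0% without TGFBR1 to 51.8% without BMPR2. The sense share was 100% in all 11 of its alternatives, which was fixed in advance. They only left out genes or low scores, and the spans held 0 opposite-strand regions to begin with. These 11 are among the 36 that stayed. Arrays numbered 10 at gaps of 500 nt and 9, 1 per gene, at 2000 nt, where the 2 arrays of ACVR2B joined. With scores of at least 3 alone there were 6, on ACVR2B, BMPR2, SMAD5, SMAD4 and SMAD7, which follows from fewer regions. The depth behind each score is unknown.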

Other observations

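The list gives a 1-nt position inside each region, which the values above use only as an alternative. Read from 5′ to 3′ on a scale from 0 to 1, its median was 0.483 over the 405 regions, against 0.524 over the 211542 others. It was 0.455 for the 342 regions on the genes of the plus strand and 0.636 for the 63 regions of SMAD2 and SMAD7 on the minus strand. The others were not split by strand, so the comparison with them is not matched for strand. Width and score rose together across the 405 regions (Spearman's rho = 0.487, across regions that share genes and libraries), against 0.453 over the whole list. By gene this rho ranged from 0.170 on TGFBR1 to 0.735 on SMAD7.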
